A study of Mus musculus with 20 samples.

Results

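The genes described here are 10 members or partners of the BCL2 system, measured in CD8+ T cells from mouse tumours: the pro-survival genes Bcl2, Bcl2l1, Mcl1, Bcl2a1b and Bcl2a1d, the BH3-only genes Bcl2l11 and Bbc3, the effectors Bax and Bak1, and the long non-coding RNA Morrbid. They were chosen by gene symbol, with results of these group comparisons already known, and all 10 were found among the 45777 symbols of the table. Their levels and differences are therefore given as a description, without a test of their own. The cells were sorted as CD8+ tumour-infiltrating T cells from C57BL/6 mice whose genotype is labelled hPD-1/hPD-L1/h4-1BB, for the human forms of PD-1, PD-L1 and 4-1BB, carrying syngeneic MC38 colon carcinoma cells that overexpress human PD-L1. Mice were randomised at a mean tumour volume of 150 to 200 mm3 and the cells were taken on day 4. The 4 groups of 5 libraries, all of this genotype and tumour, were Control, Pembrolizumab (an antibody that blocks human PD-1), ABL503 (a bispecific antibody to PD-L1 and 4-1BB) and Combination, which received both antibodies. The labels give no dose, no age, and no statement of what the Control mice received, and they do not say whether each library came from its own mouse, so the spread between libraries may be technical in part. The grafted tumour is 1 cell line with a forced ligand, which limits it as a model.

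Cells commit to mitochondrial apoptosis when BAX and BAK1 open pores in the outer mitochondrial membrane. Pro-survival proteins (BCL2, BCL-XL from Bcl2l1, MCL1 and A1 from the Bcl2a1 genes) hold these effectors and the BH3-only proteins in check, and BH3-only proteins such as BIM (Bcl2l11) and PUMA (Bbc3) oppose them. In CD8+ T cells, BCL2 and MCL1 are linked to cytokine-dependent survival, A1 to activation, and BIM to the death of effector cells when a response contracts. Morrbid is transcribed from the chromosome that carries Bcl2l11 and is known in mice to repress Bcl2l11, first in short-lived myeloid cells and also in CD8+ T cells.

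In the RefSeq annotation of GRCm38.p6, Bcl2l11 lies at chr2:128126038-128162547 on the plus strand and Morrbid at chr2:128298663-128429351 on the minus strand, so that the genes point towards each other with 136115 bases between their ends. Bcl2l1 is on the same chromosome at chr2:152758732-152833803. Bcl2 lies at chr1:106538176-106714290, Mcl1 at chr3:95656944-95663179, Bax at chr7:45461695-45466903, Bbc3 at chr7:16308398-16318334 and Bak1 at chr17:27019812-27028627. Bcl2a1b at chr9:89199273-89207838 and Bcl2a1d at chr9:88723288-88731850 are copies within 1 gene cluster. RefSeq promoter windows, 250 bases before to 50 bases after an annotated start, were found for all 10 genes (15 windows in all) and were searched on both strands for 3 motifs. The FOXO core GTAAACA occurred in 3.65% of the 32851 windows of the table, the NF-kB motif in 4.51% and the p53 half-site in 8.36%. The FOXO core was found in 1 window of each BH3-only gene and not in their other windows, while the shares above are per window. Known activators of both genes include FOXO proteins. The windows with the core are shown with the match in capitals, from chr2:128125788-128126087 and chr7:16310011-16310310, both on the plus strand.
Bcl2l11: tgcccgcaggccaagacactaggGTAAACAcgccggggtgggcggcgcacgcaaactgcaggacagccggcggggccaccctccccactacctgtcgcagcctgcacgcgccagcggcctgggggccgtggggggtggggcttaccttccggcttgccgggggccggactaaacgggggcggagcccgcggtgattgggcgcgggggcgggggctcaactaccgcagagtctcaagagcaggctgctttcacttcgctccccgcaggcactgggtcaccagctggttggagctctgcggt
Bbc3: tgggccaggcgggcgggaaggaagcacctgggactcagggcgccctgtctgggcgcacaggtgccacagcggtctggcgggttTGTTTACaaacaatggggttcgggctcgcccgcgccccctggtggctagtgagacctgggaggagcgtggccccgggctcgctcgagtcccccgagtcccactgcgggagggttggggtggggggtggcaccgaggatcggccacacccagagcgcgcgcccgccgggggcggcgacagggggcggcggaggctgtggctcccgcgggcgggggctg
The match lies at position -227 from the start in Bcl2l11 and at -167 in Bbc3, where it is read on the opposite strand. The other motifs gave 1 p53 half-site in Bax, at -201, and NF-kB matches in a second window of Bbc3 (a pair that overlaps) and in 1 window of Bcl2l1 (at -242). A match is a run of letters and not a measured binding site.

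The copies of A1 are shown next, because their sequences decide how far their values can be read separately. The aligned promoter stretches are from chr9:89199023-89199278 on the plus strand (Bcl2a1b) and chr9:88731801-88732050 on the minus strand (Bcl2a1d), with the bases that differ in capitals.
Bcl2a1b: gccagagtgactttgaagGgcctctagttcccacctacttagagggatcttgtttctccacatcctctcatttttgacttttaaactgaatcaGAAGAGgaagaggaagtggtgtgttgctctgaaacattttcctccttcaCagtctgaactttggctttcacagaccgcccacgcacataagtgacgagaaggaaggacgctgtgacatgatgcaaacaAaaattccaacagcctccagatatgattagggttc
Bcl2a1d: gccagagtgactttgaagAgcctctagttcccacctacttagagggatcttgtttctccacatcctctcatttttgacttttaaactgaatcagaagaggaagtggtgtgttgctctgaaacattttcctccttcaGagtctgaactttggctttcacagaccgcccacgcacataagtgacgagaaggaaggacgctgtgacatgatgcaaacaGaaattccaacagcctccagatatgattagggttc
These stretches matched at 247 bases, with 3 mismatches and 6 bases present only in Bcl2a1b (98.8% of the aligned bases). The transcripts of both genes (817 and 863 bases) matched at 99.1% of aligned bases, with 810 identities, 7 mismatches and 46 gap bases. The files do not say how reads shared between such copies were divided, so the split between Bcl2a1b and Bcl2a1d is uncertain. Their ratio lay between 1.65 and 2.02 in all 20 libraries. In the annotation, 401 of the 817 exon bases of Bcl2a1b also belong to the gene model Gm29094 on the same strand. Same-strand models also share 192 of the 1576 exon bases of Bax (Gm45808) and 173 of the 4070 of Morrbid (Gm14012). The library kit does not mark strand, so reads from overlapping models on the opposite strand (Gm14009 with 128 of 4070 exon bases of Morrbid, D630008O14Rik with 558 of 9157 of Bcl2, Ggnbp1 with 614 of 2407 of Bak1) cannot be told apart from the gene's own.

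Values are taken as FPKM, a unit inferred from the table, in which fragments are scaled to gene length and to the mapped total of the library. Levels set side by side between genes rest on that inference. Read depth is unknown, and the sums over all symbols ran from 575918 to 654333 per library. The T cell label held: the 5 T cell markers (Cd3d, Cd3e, Cd3g, Cd2 and Trac) summed to 3789 to 6367 FPKM and Cd8a with Cd8b1 to 679 to 1234 FPKM, while Cd4 stayed at or below 0.630 FPKM. Markers of other cells were low but not absent. The 10 monocyte and macrophage markers, none of them under 0.1 FPKM in all libraries, summed to 14.7 to 130 FPKM in Control (median 40.4), 26.1 to 87.8 in Pembrolizumab (37.8), 25.7 to 85.1 in ABL503 (41.4) and 19.8 to 33.5 in Combination (23.7). The 6 dendritic cell markers summed to a median of 45.1 FPKM in Control (40.8 to 159), 27.9 in Pembrolizumab (15.2 to 59.6), 66.9 in ABL503 (28.3 to 83.0) and 25.9 in Combination (16.2 to 32.0). Of the 5 neutrophil markers, Csf3r, Cxcr2 and Retnlg were under 0.1 FPKM in every library, and the sum stayed at or below 0.722 FPKM outside the ABL503 group, where it reached 13.6. The 4 tumour epithelial markers summed to 3.24 to 8.55 FPKM in Control and 2.38 to 3.83 in Combination. B cell, NK cell, mast cell and stromal sums stayed at or below 7.29 FPKM.

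Comparisons used log2(FPKM + 1) and a linear model (limma) over the 11794 genes that reached 1 FPKM in 5 or more libraries. A gene counted as called at a Benjamini-Hochberg adjusted p under 0.05 over all of them. Of the 10 genes, 9 passed this filter, and Bak1 did not, with at least 1 FPKM in only 4 libraries. Differences below are in log2(FPKM + 1) with the standard error of the fit, n = 5 per group, and understate the fold of low genes. The 3 comparisons with Control share its libraries, as those with Combination share its libraries.

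Against Control, 5 of the 9 tested genes lay past the threshold in Combination: Bax was higher and Bcl2, Mcl1, Bcl2l11 and Morrbid were lower. Of all genes tested, 12.6% were called in that comparison. In Pembrolizumab against Control, Bax alone of the 9 lay past it, higher, beside 5.55% of all genes, and in ABL503 against Control none did, beside 0.619% of all genes (73 called, and 1292 at an unadjusted p under 0.05). The members' median difference was -0.33 in Combination against -0.04 over all genes, 0.00 in Pembrolizumab against -0.03, and -0.01 in ABL503 against -0.01. Groups whose libraries did not overlap are also given below. Over all tested genes this held for 6.12% in Pembrolizumab and 8.84% in Combination against Control. It held for 2.76% in Combination and 3.73% in ABL503 against Pembrolizumab. Of the 9 members, 1, 3, 2 and 1 did so, in the same order. None did in ABL503 against Control (2.59% of all genes) or Combination against ABL503 (5.93%). Because the genes were chosen with these results known, the counts describe them and test nothing. In a bulk sample, fewer cells with a transcript and less of it per cell cannot be told apart.

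**Figure D1:**
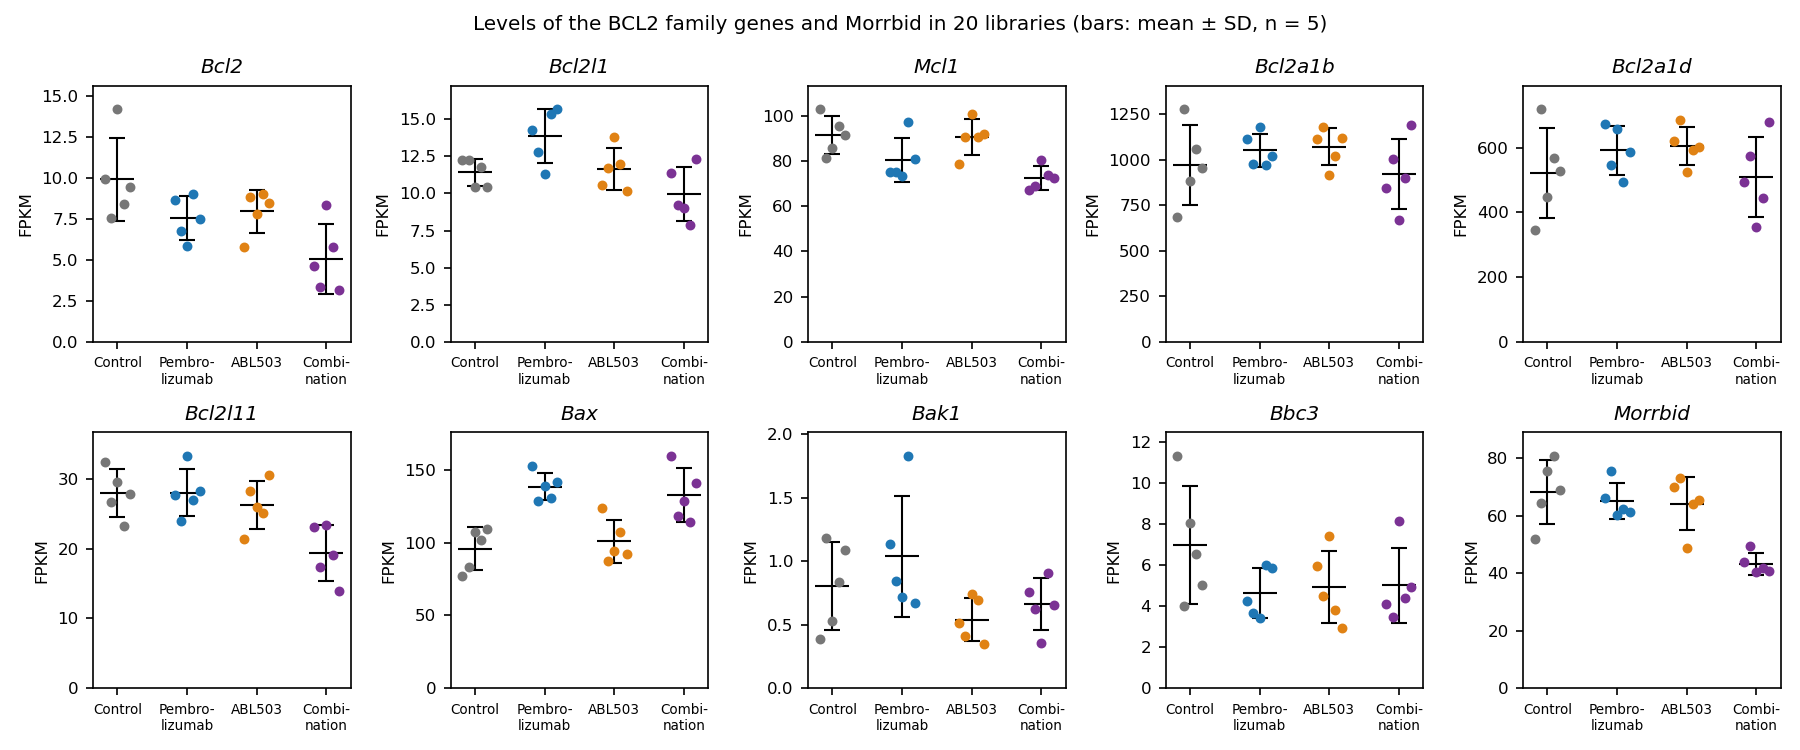
FPKM of the 10 genes in each library, 1 panel per gene with its own axis from 0; points are the 5 libraries of a group, long bars the mean and whiskers the SD. The 5 Combination libraries for Morrbid (40.5 to 49.3 FPKM) lie below all Control libraries, and the Pembrolizumab libraries for Bax (129 to 152 FPKM) lie above all Control libraries. Of all tested genes, 8.84% did not overlap between Combination and Control, and 6.12% between Pembrolizumab and Control.

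Among the pro-survival genes, the A1 copies had the highest values. Bcl2a1b lay between 670 and 1277 FPKM over the 20 libraries, and its mean ranked 95 of all symbols. Bcl2a1d lay between 347 and 719 FPKM, with a rank of 190. Together they made up 89.2% to 95.5% of the summed FPKM of the 5 pro-survival genes in every library, so that sum mainly follows A1. A further copy, Bcl2a1a, lay at 108 to 216 FPKM in Control and had group means of 159 ± 39.2 (SD, n = 5) in Control, 176 ± 13.1 in ABL503, 176 ± 23.9 in Pembrolizumab and 149 ± 31.1 in Combination. No group stood apart for A1. Bcl2a1b averaged 972 ± 219 FPKM (SD, n = 5) in Control, 1070 ± 102 in ABL503, 1052 ± 90.4 in Pembrolizumab and 923 ± 193 in Combination. Bcl2a1d averaged 522 ± 139, 605 ± 57.6, 592 ± 75.1 and 510 ± 124 FPKM in the same order. The spread was widest in Control and Combination: the copies shared their low libraries, Control 1 (684 and 347 FPKM) and Combination 3 (670 and 354), and each was at its highest in Control 2 (1277 and 719). The differences from Control were between -0.07 and 0.16 for Bcl2a1b (SE 0.15) and between -0.03 and 0.25 for Bcl2a1d (SE 0.17) over the 3 treated groups. In Combination both turned above 0 without Control 2 (0.04 and 0.10) or Combination 3 (0.04 and 0.10), and Bcl2a1d also without Control 4 (0.02) or Combination 4 (0.01).

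Bcl2 itself, which keeps naive and memory T cells alive, was far lower than A1 on this scale. It stood at 9.92, 7.58, 14.2, 8.43 and 9.45 FPKM in Control libraries 1 to 5. In Combination it stood at 4.66, 3.32, 8.38, 5.80 and 3.15 FPKM. Of the Combination libraries, 4 lay below every Control library, and library 3 lay among them. Pembrolizumab (8.68, 6.78, 5.83, 9.05 and 7.50 FPKM) and ABL503 (5.80, 8.83, 7.78, 9.01 and 8.49 FPKM) had means between these groups and overlapped both. The group means were 9.92 ± 2.56 FPKM in Control, 7.98 ± 1.31 in ABL503, 7.57 ± 1.33 in Pembrolizumab and 5.06 ± 2.14 in Combination (SD, n = 5), and neighbours in this order overlapped. The difference from Control was -0.89 (SE 0.20) in Combination, -0.34 in Pembrolizumab and -0.27 in ABL503 (SE 0.20 each). With 1 library left out, the Combination difference ran from -1.06 (without Combination 3) to -0.76 (without Control 3).

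Mcl1, a short-lived protein on which T cells depend at every stage, had a mean of 91.4 ± 8.36 FPKM in Control, 90.6 ± 7.89 in ABL503, 80.4 ± 9.88 in Pembrolizumab and 72.5 ± 5.22 in Combination (SD, n = 5). The Control libraries read 103, 81.5, 85.6, 95.4 and 91.6 FPKM. The Combination libraries read 67.0, 68.9, 80.5, 73.8 and 72.5 FPKM, all below Control, although the nearest pair (80.5 and 81.5) differed by little. In Pembrolizumab 4 libraries lay between 73.6 and 81.0 FPKM and library 4 at 97.3, and ABL503 ran from 78.6 to 101. The difference of Combination from Control was -0.33 (SE 0.09). It lay past the threshold with all libraries and not without Control 1 (-0.28), Combination 1 or Combination 2.

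Bcl2l1, which encodes BCL-XL and is linked to costimulation, had its highest mean in Pembrolizumab, at 13.9 ± 1.82 FPKM (range 11.3 to 15.7). ABL503 stood at 11.6 ± 1.42 FPKM, Control at 11.4 ± 0.927 and Combination at 9.96 ± 1.82 (SD, n = 5). Every pair of groups overlapped. The difference from Control was 0.25 in Pembrolizumab, 0.02 in ABL503 and -0.19 in Combination (SE 0.12 each). The pro-survival genes other than A1 thus did not share 1 order over the groups: Bcl2, Mcl1 and Bcl2l1 each had their lowest mean in Combination, while Bcl2l1 alone of the 3 had a higher mean in Pembrolizumab than in Control. Summed, the 3 genes stood at 113 ± 8.63 FPKM in Control, 110 ± 9.78 in ABL503, 102 ± 12.2 in Pembrolizumab and 87.5 ± 6.44 in Combination.

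Bax, which forms the pore, had higher means in both groups that received pembrolizumab. It stood at 76.9, 83.4, 107, 102 and 109 FPKM in Control and at 124, 87.2, 94.6, 107 and 92.1 FPKM in ABL503. It stood at 152, 129, 139, 131 and 142 FPKM in Pembrolizumab and at 160, 119, 129, 114 and 141 FPKM in Combination. All Pembrolizumab libraries lay above every Control and ABL503 library. All Combination libraries lay above every Control library, and ABL503 1 (124 FPKM) reached into their range. Means were 95.9 ± 14.7 FPKM in Control, 101 ± 14.7 in ABL503, 133 ± 18.4 in Combination and 139 ± 9.53 in Pembrolizumab (SD, n = 5), where the order of the first pair and of the second pair is within their spread. The difference from Control was 0.54 in Pembrolizumab, 0.47 in Combination and 0.08 in ABL503 (SE 0.12 each). Bak1, the other effector, stayed between 0.347 and 1.83 FPKM, with group means of 0.804 ± 0.343 in Control, 0.541 ± 0.172 in ABL503, 1.04 ± 0.477 in Pembrolizumab and 0.661 ± 0.203 in Combination. Its groups overlapped, and at this level it entered no comparison.

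Bcl2l11, which encodes BIM, had its lowest mean in Combination, where the difference from Control, and not that from either single agent, lay past the threshold. It stood at 32.5, 26.7, 29.5, 23.3 and 27.8 FPKM in Control. In Combination it stood at 23.0, 17.3, 23.4, 19.1 and 13.9 FPKM, of which library 3 reached just above the lowest Control library. Pembrolizumab ran from 24.0 to 33.3 FPKM, above all Combination libraries, and ABL503 from 21.3 to 30.6 FPKM. Group means were 28.0 ± 3.39 FPKM in Control, 26.2 ± 3.46 in ABL503, 28.0 ± 3.37 in Pembrolizumab and 19.3 ± 4.00 in Combination (SD, n = 5), the first 3 within their spread of each other. The difference from Control was -0.53 in Combination, 0.00 in Pembrolizumab and -0.09 in ABL503 (SE 0.13 each).

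Bbc3, which encodes PUMA, a p53 and FOXO target, was low throughout. Its mean was 6.999 ± 2.87 FPKM in Control and 4.65 ± 1.21, 4.94 ± 1.77 and 5.02 ± 1.83 in Pembrolizumab, ABL503 and Combination (SD, n = 5). Control 1 (11.3 FPKM) and Combination 3 (8.17 FPKM) were its highest libraries, and all groups overlapped. The differences from Control were -0.46, -0.41 and -0.38 (SE 0.25 each), in the same order, and became -0.28, -0.24 and -0.21 without Control 1.

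Morrbid was also lower in Combination, and its libraries there were the most even. It stood at 51.9, 64.4, 75.6, 80.8 and 69.0 FPKM in Control. In Combination it stood at 43.8, 49.3, 40.5, 41.8 and 40.6 FPKM, below every Control library and every Pembrolizumab library (66.1, 75.4, 60.2, 62.4 and 61.1 FPKM). ABL503 stood at 69.9, 72.9, 48.8, 63.9 and 65.4 FPKM, of which library 3 fell within the Combination range. Group means were 68.4 ± 11.1 FPKM in Control, 64.2 ± 9.30 in ABL503, 65.0 ± 6.19 in Pembrolizumab and 43.2 ± 3.66 in Combination (SD, n = 5), the first 3 within their spread of each other. The difference from Control was -0.64 in Combination, -0.06 in Pembrolizumab and -0.09 in ABL503 (SE 0.12 each). Myeloid cells also express Morrbid, and the monocyte and macrophage sums were lower in Combination (above). With that sum as a covariate, an alternative added after the data were seen, the difference was -0.59 (SE 0.12) from Control and past the threshold, and -0.52 (SE 0.12) from Pembrolizumab and not past it. The dendritic cell sums were not fitted. Their medians were close in Combination (25.9 FPKM) and Pembrolizumab (27.9 FPKM), both below Control (45.1 FPKM). Of these markers H2-Ab1 had the highest mean, at 54.25 FPKM in Control and 12.04 in Combination. Siglech, Flt3 and Clec9a also had lower means in Combination than in Control. Zbtb46 (3.31 in Control and 6.33 in Combination) and Xcr1 (2.52 and 3.69) had higher ones. The part of either cell type in the Morrbid values was not tested.

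**Figure D2:**
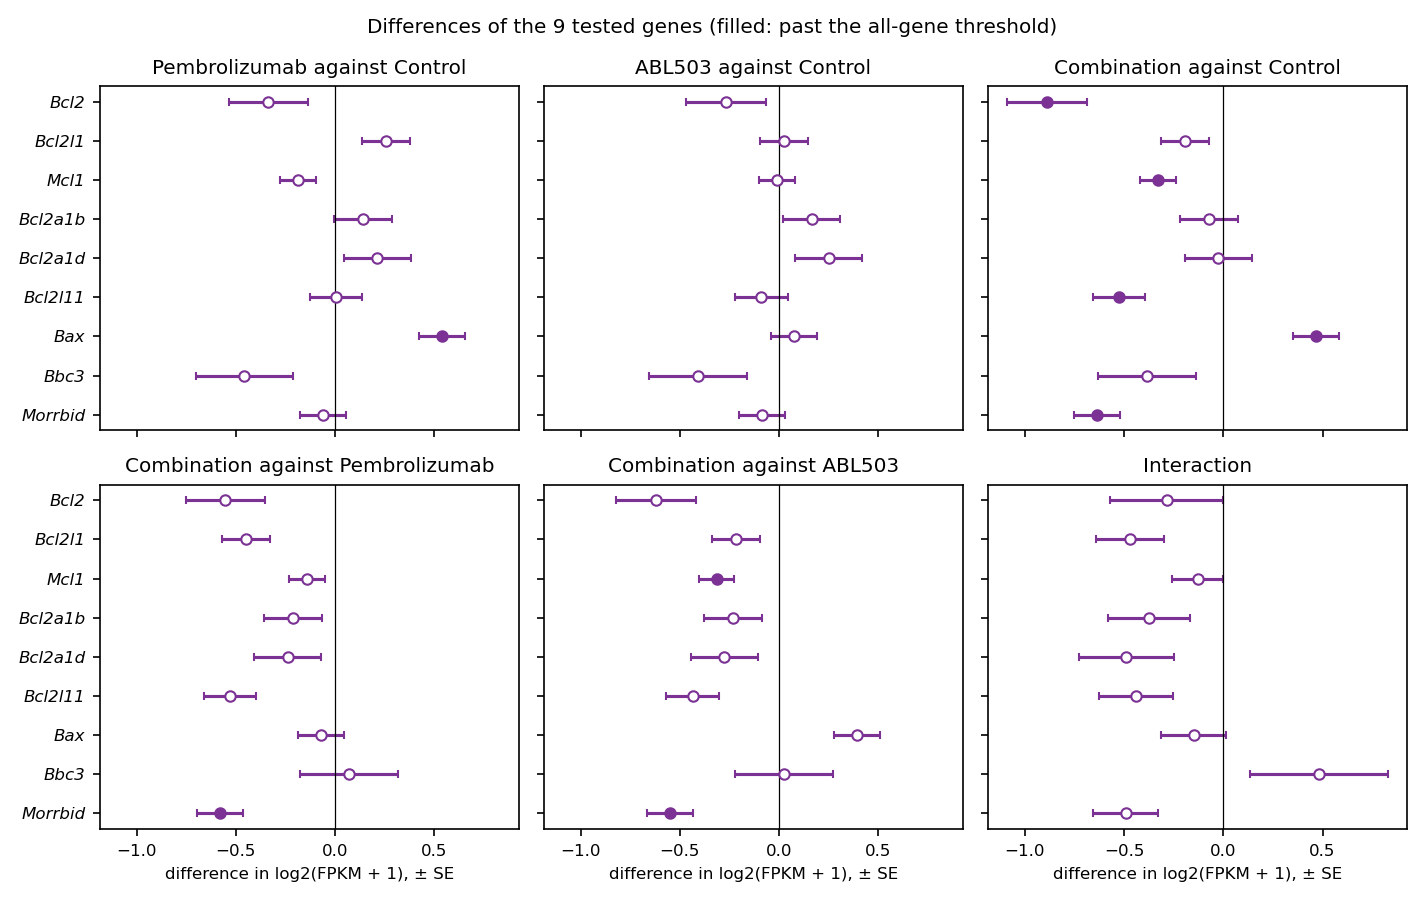
Differences in log2(FPKM + 1) with SE for the 9 tested genes, in 6 panels by comparison; filled points lay past the threshold over all 11794 genes. In Combination against Control, Bcl2 (-0.89), Mcl1, Bcl2l11 and Morrbid lie to the left and Bax (0.47) to the right of 0.

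Adding ABL503 to pembrolizumab, and pembrolizumab to ABL503, is read from the comparisons of Combination with each single agent. Against Pembrolizumab, 1 of the 9 lay past the threshold, beside 0.161% of all genes (19 called, and 1552 at an unadjusted p under 0.05): Morrbid was lower, at -0.58 (SE 0.12). That call was lost without any 1 of 8 of the 10 libraries and kept only without Pembrolizumab 3 or Combination 1, and it was also lost with the myeloid covariate (-0.52). With 1 library left out, the Morrbid difference ran from -0.63 to -0.52, and the count of called genes from 6 to 49. Bcl2l11, at -0.53 (SE 0.13), and Bcl2, at -0.55 (SE 0.20), were not past the threshold. The Bcl2l11 libraries did not overlap, nor did those of 2.76% of all genes. Bcl2l1 was lower, at -0.45 (SE 0.12), also not past the threshold, and Bax differed by -0.07 (SE 0.12). Against ABL503, 2 of the 9 lay past the threshold, beside 4.53% of all genes: Morrbid at -0.55 (SE 0.12) and Mcl1 at -0.32 (SE 0.09). The Mcl1 call was kept only without ABL503 1 or Combination 3 and was lost without any other 1 of the 10 libraries. With 1 library left out, the Mcl1 difference ran from -0.36 to -0.28. Bax was higher by 0.39 (SE 0.12), Bcl2 lower, at -0.62 (SE 0.20) and Bcl2l11 lower, at -0.44 (SE 0.13), each on the other side of the threshold. These last calls were gained when single libraries were left out: Bax without ABL503 1 or Combination 4, Bcl2 without ABL503 1 or Combination 3, and Bcl2l11 without ABL503 1, Combination 1 or Combination 3.

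Between the single agents, none of the 9 lay past the threshold, beside 1.28% of all genes (151 called, and 1596 at an unadjusted p under 0.05). Bax differed by -0.46 (SE 0.12) in ABL503 against Pembrolizumab and lay past it only when ABL503 1 was left out or under the alternatives given in the closing section, and the other differences ran from -0.23 (Bcl2l1) to 0.17 (Mcl1). The interaction, the difference that pembrolizumab made with ABL503 minus that without it, was below 0 for 8 of the 9 genes. Its values were -0.49 (SE 0.17) for Morrbid, -0.49 (SE 0.24) for Bcl2a1d, -0.47 (SE 0.17) for Bcl2l1, -0.44 (SE 0.19) for Bcl2l11 and 0.48 (SE 0.35) for Bbc3. None lay past the threshold, beside 0.203% of all genes (24 called, and 1210 at an unadjusted p under 0.05). The median was -0.37 over the members and 0.00 over all genes. The A1 copies share reads and are not separate instances of it.

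Ratios between genes were taken within each library. Bax over Bcl2 was 7.57 to 12.1 in Control (median 11.0, n = 5), 9.87 to 21.3 in ABL503 (median 11.9), 14.4 to 23.9 in Pembrolizumab (median 18.9) and 15.4 to 44.9 in Combination (median 34.3). All Pembrolizumab and Combination libraries lay above all Control libraries, as they already did for Bax alone, and the Combination group was the most spread. Bax over Mcl1 was 1.06 ± 0.197 (SD, n = 5) in Control, 1.13 ± 0.265 in ABL503, 1.75 ± 0.258 in Pembrolizumab and 1.84 ± 0.340 in Combination. Bcl2l11 over Bcl2, a death gene over a survival gene that were both lower in Combination, was 2.92 ± 0.550, 3.32 ± 0.355, 3.84 ± 1.09 and 4.13 ± 1.05 in Control, ABL503, Pembrolizumab and Combination, with overlapping groups. Morrbid over Bcl2l11 was close in all groups, at 2.50 ± 0.663 in Control, 2.49 ± 0.529 in ABL503, 2.36 ± 0.489 in Pembrolizumab and 2.32 ± 0.544 in Combination. Within the groups the ratio ranged from 1.60 to 3.47, wider than the distance between their means.

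**Figure D3:**
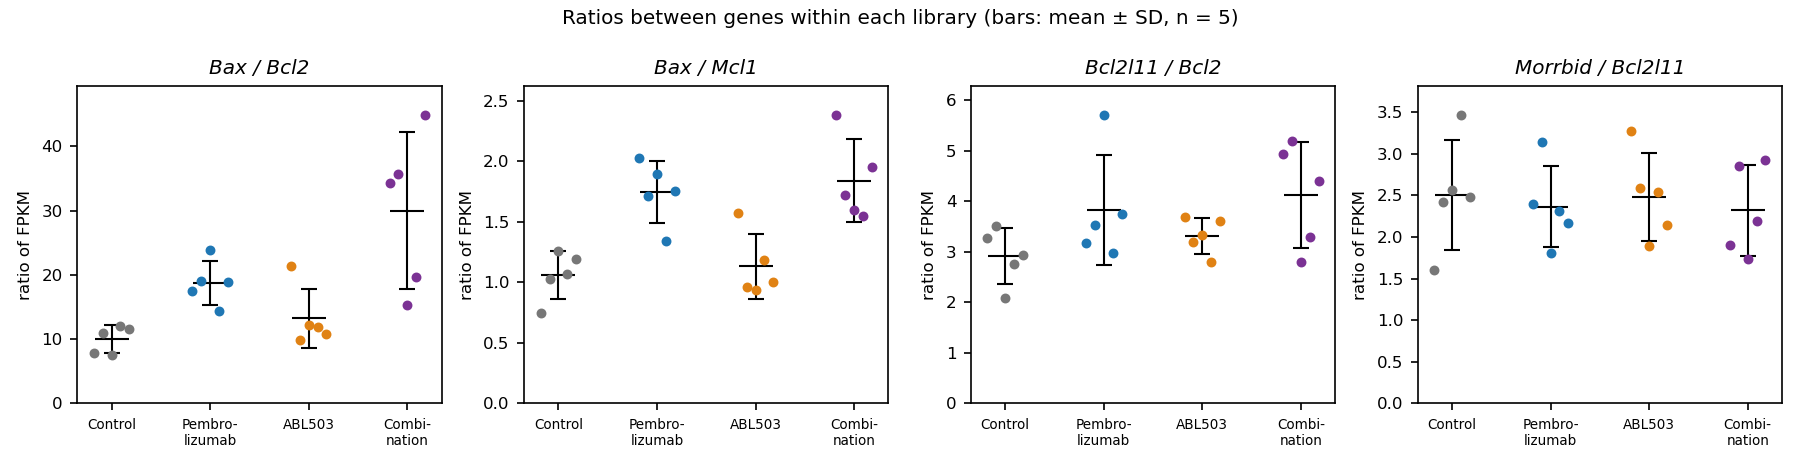
Ratios of FPKM within each library, 1 panel per ratio with axes from 0; points are libraries, long bars the mean and whiskers the SD of 5. Bax over Bcl2 runs from 7.57 to 12.1 in Control and from 15.4 to 44.9 in Combination, while Morrbid over Bcl2l11 overlaps in all 4 groups.

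The genes most like Bcl2, Morrbid and Bax were found as the smallest mean absolute difference in centred log2(FPKM + 1) over the 20 libraries. For Bcl2 they were Paxbp1 (0.17), Taf4b (0.17), Chd7 (0.18), Zfp36l2 (0.18) and Snora7a (0.19), where the median over all genes was 0.40. For Morrbid they were Ndufa4 (0.15), Rfxap (0.15), Emc6 (0.16), 2310001H17Rik (0.16) and Ranbp1 (0.16), against 0.35. For Bax they were Mrps15 (0.11), Lgals3 (0.12), Cd53 (0.12), Sdhc (0.13) and Prdx5 (0.13), against 0.34. None of these lists contained another of the 10 genes.

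The rest of the pathway was read from 10 lists with 103 other genes, of which 89 were tested in the same fit with adjusted p-values over all genes. The lists, too, were chosen with earlier results of these data known. Their shares beside those of all genes therefore describe the lists and test no enrichment, and the adjusted p-values carry the same limit. In Combination against Control 11 rose and 5 fell, 18% of those tested beside 12.6% of all genes. In Pembrolizumab against Control 8 rose and 4 fell, 13.5% beside 5.55% of all genes, and in ABL503 against Control 1 rose, 1.12% beside 0.619%. Against ABL503, 5 rose and 4 fell in Combination (10.1% beside 4.53%), 2 and 2 did between the single agents (4.49% beside 1.28%), and none did against Pembrolizumab or in the interaction (22 and 19 of the 89 at an unadjusted p under 0.05, limma). Over these comparisons 24 genes made 42 calls, and 17 of the calls held under every alternative and every left-out library. Adjusted p-values below are limma's.

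Of the other BH3-only and multidomain death genes, 3 of 9 tested rose in Combination (12.6% of all genes were called) and 1 in Pembrolizumab (5.55% of all genes) against Control. Bnip3, a mitophagy receptor known to respond to hypoxia, rose from 10.6 ± 3.89 FPKM in Control to 49.0 ± 9.07 in Pembrolizumab and 63.4 ± 35.5 in Combination (SD, n = 5), by 2.16 (SE 0.28, adjusted p = 0.000248) and 2.40 (SE 0.28, adjusted p = 3.31e-05). In ABL503 it stood at 21.5 ± 7.58 FPKM, and Combination exceeded that by 1.44 (adjusted p = 0.00592). Bid, which links death receptors to BAX, rose in Combination by 0.77 (adjusted p = 0.0155; 0.0624 with only the groups compared), from 4.02 ± 1.82 to 7.24 ± 1.52 FPKM. It stood at 6.41 ± 0.908 FPKM in Pembrolizumab (adjusted p = 0.0678) and 4.31 ± 0.942 in ABL503. Bad rose by 0.54 (adjusted p = 0.0454), a call lost without Control 1, 3, 4 or 5 or Combination 1, 2 or 5 (adjusted p up to 0.123) and in 6 of the 9 other alternatives (up to 0.122). Of the 13 tested apoptosome and executioner genes, 1 was called in Pembrolizumab and 1 in Combination against Control, beside 5.55% and 12.6% of all genes. Cycs, cytochrome c, rose in Pembrolizumab by 0.44 (adjusted p = 0.0264), and Diablo, an antagonist of IAP proteins, in Combination by 0.41 (adjusted p = 0.0443). The first was lost without Control 1 or 2 or Pembrolizumab 1, 2 or 5 (up to 0.0744), and the second without Control 1 to 4 or Combination 1, 2, 4 or 5 (up to 0.0993). Of the 9 other alternatives, 1 ended the Cycs call and 5 the Diablo call. Vdac1, the outer membrane channel, was the 1 gene of 10 that rose among the pore and partner genes, beside 12.6% of all genes called in Combination. It went from 17.3 ± 3.43 FPKM in Control to 25.3 ± 2.93 in Combination, by 0.53 (SE 0.13, adjusted p = 0.0123). Means of the single agents were close to that, at 24.2 ± 3.68 FPKM in Pembrolizumab and 24.8 ± 3.59 in ABL503. The first was called (adjusted p = 0.0403, lost without 8 of 10 libraries in turn and in 5 of 9 other alternatives) and the second was not.

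Of the 5 inhibitor of apoptosis genes, Birc3 fell in Pembrolizumab from 31.9 ± 1.89 to 20.6 ± 3.12 FPKM, by 0.61 on the log2 scale (SE 0.11, adjusted p = 0.00293). Birc3 was higher in ABL503 than in Pembrolizumab by 0.51 (adjusted p = 0.022), lost without 4 of 10 libraries in turn and in 2 of 9 other alternatives. Birc2 stood at 38.4 ± 3.84 FPKM in Control, 28.1 ± 2.11 in Pembrolizumab and 42.6 ± 6.21 in ABL503. It was higher in ABL503 than in Pembrolizumab by 0.58 (SE 0.11, adjusted p = 0.0144). In Pembrolizumab against Control it differed by -0.44 (adjusted p = 0.0275), lost without 6 of 10 libraries in turn and in 1 of 9 other alternatives. Both encode cIAP proteins that act with TRAF adaptors below 4-1BB and other TNF receptors. In the death receptor arm (8 tested), Fas fell in Combination to 32.0 ± 10.2 FPKM from 56.9 ± 12.7 in Control, by 0.85 on the log2 scale (SE 0.20, adjusted p = 0.0104), and from 70.3 ± 7.84 in ABL503, by 1.17 (SE 0.20, adjusted p = 0.00304). Cflar, the inhibitor of caspase-8 activation, rose in Pembrolizumab from 27.5 ± 3.95 to 41.0 ± 7.19 FPKM, by 0.55 (adjusted p = 0.0125; 0.0502 with only the groups compared). Its mean was close to that in ABL503, at 39.8 ± 2.79 FPKM, and stood at 33.0 ± 4.60 in Combination, neither past the threshold against Control. Tradd was higher in Combination than in ABL503 by 0.89 (adjusted p = 0.0173), a call lost without ABL503 2 or 3 (up to 0.0533).

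Of the 15 tested transcription factors that act upstream of the 10 genes, 2 fell in Combination against Control, where 12.6% of all genes were called, so this count is near the background. Against ABL503, 3 of the 15 were lower in Combination, beside 4.53% of all genes: Foxo1, Rel and Myc. Myc differed by -0.89 (SE 0.24, adjusted p = 0.0333). That call was lost without ABL503 2, 3 or 5 or Combination 2, 4 or 5 (up to 0.0926) and with no filter (0.111). Foxo1, which activates Bcl2l11 and Bbc3 and maintains Il7r in T cells, fell from 47.0 ± 3.09 to 30.9 ± 6.57 FPKM, by 0.61 on the log2 scale (SE 0.13, adjusted p = 0.00533). It stood at 43.6 ± 7.27 FPKM in Pembrolizumab and 46.0 ± 5.80 in ABL503. Foxo1 in Combination differed from ABL503 by -0.58 (SE 0.13, adjusted p = 0.0164, or 0.0514 with only the groups compared). Rel, an NF-kB subunit that activates Bcl2a1 and Bcl2l1, was 24.6 ± 3.49 FPKM in ABL503 and 16.4 ± 2.04 in Combination, a fall by 0.55 (SE 0.11, adjusted p = 0.00566). Its fall from Control, by 0.40 (adjusted p = 0.0202), was lost without Control 1 or 3 or Combination 2 (up to 0.0575). Trp53 itself differed by 0.01 (SE 0.13, adjusted p = 0.974) in Combination against Control. Of 9 tested p53 targets, 3 rose in Combination and 2 in Pembrolizumab against Control, beside 12.6% and 5.55% of all genes called. Ccng1 rose in Combination from 14.9 ± 3.04 to 29.4 ± 8.86 FPKM, by 0.90 (SE 0.18, adjusted p = 0.00319), and Phlda3 from 0.841 ± 0.498 to 3.31 ± 1.51 FPKM, by 1.21 (SE 0.28, adjusted p = 0.0076). In Pembrolizumab, Ccng1 rose by 0.71 (adjusted p = 0.0257), lost without Control 1, 2 or 4 or Pembrolizumab 3 or 5 (up to 0.0726), and Perp by 0.74 (adjusted p = 0.0178), lost without Pembrolizumab 1 (0.0565). Cdkn1a rose in Combination by 0.68 (adjusted p = 0.029), lost without Control 4 or 5 or Combination 1 or 2 (up to 0.079) and in 4 of 9 other alternatives, and Mdm2 differed by -0.04 (SE 0.11, adjusted p = 0.851).

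Among 8 tested genes for the turnover of MCL1 and BIM, Usp9x, which removes ubiquitin from MCL1, fell by 0.52 in Pembrolizumab (adjusted p = 0.0457) and by 0.49 in Combination (adjusted p = 0.0362) against Control. The first call was lost without Control 1 to 4 or Pembrolizumab 1 to 4 (up to 0.127), and the second without Control 1, 3 or 4 or Combination 1, 2, 3 or 5 (up to 0.105). The other alternatives ended the first in 6 and the second in 5 of 9. Of the 11 cytokine and costimulatory receptor genes, Tnfrsf9, the mouse gene of 4-1BB, was 107 ± 13.6 FPKM in Control, 163 ± 15.8 in ABL503, 241 ± 38.8 in Pembrolizumab and 259 ± 35.5 in Combination. It rose by 0.60 (SE 0.12, adjusted p = 0.014), 1.15 (adjusted p = 1.11e-05) and 1.26 (adjusted p = 4.25e-06), in the same order, and the ABL503 call was lost without ABL503 5 (0.0534). The mice carry h4-1BB, and how reads of that sequence were counted is not stated. Il2ra rose by 1.05 in Pembrolizumab (SE 0.20, adjusted p = 0.00568) and by 0.83 in Combination (SE 0.20, adjusted p = 0.0121). Il7r, whose signal maintains Bcl2, fell in Combination from 32.3 ± 11.7 to 18.5 ± 3.72 FPKM, by 0.72 on the log2 scale (adjusted p = 0.0245), and this call was lost without Control 1, 2 or 3 or Combination 1 or 2 (up to 0.0684) and in 4 of 9 other alternatives. Its means were 22.4 ± 2.47 FPKM in Pembrolizumab and 20.7 ± 3.76 in ABL503.

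**Figure D4:**
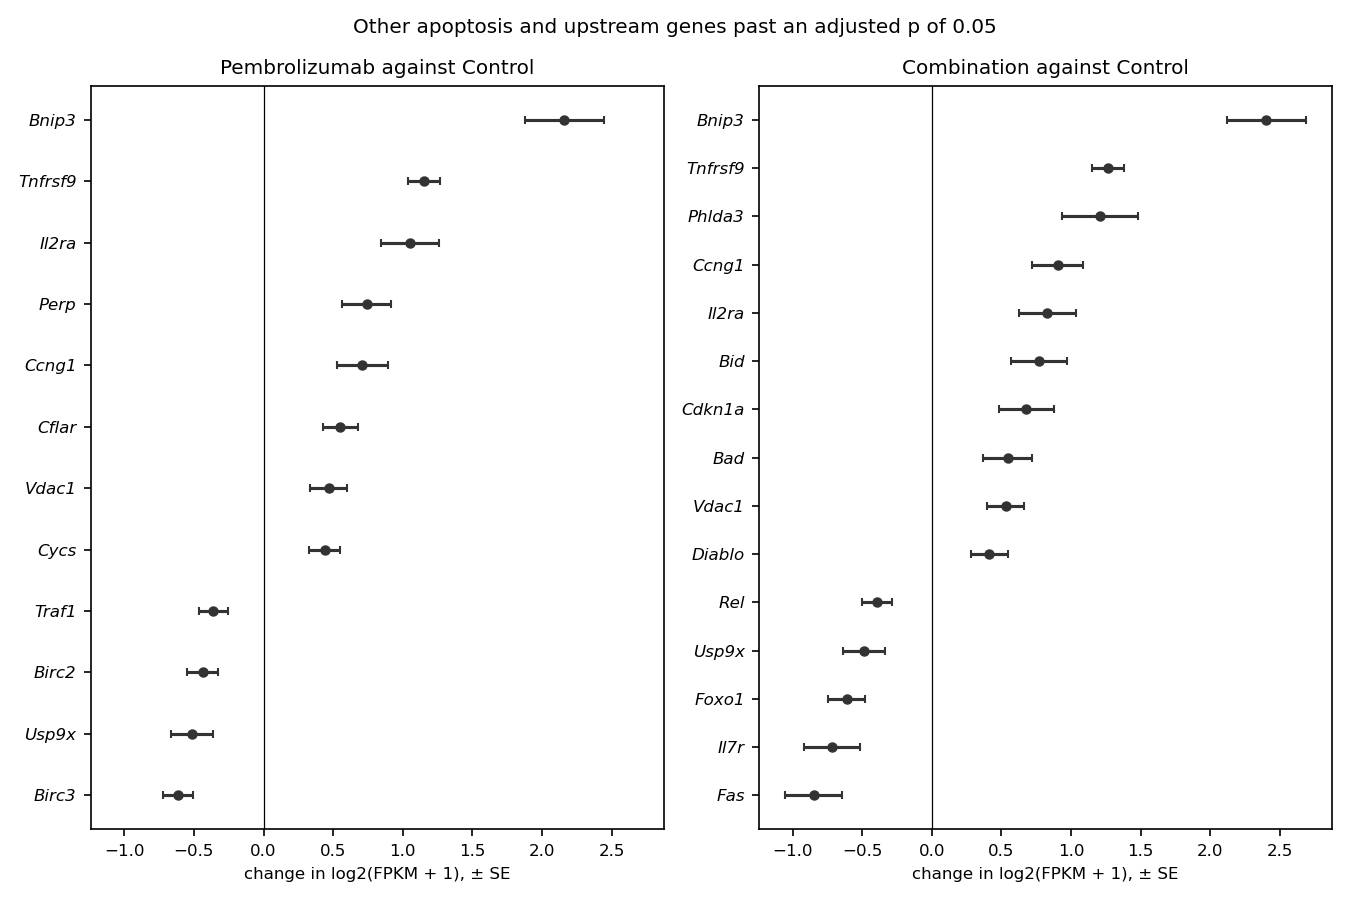
Changes in log2(FPKM + 1) with SE of the listed genes, other than the 10, that passed an adjusted p of 0.05 in Pembrolizumab or in Combination against Control, with 1 gene left out. Bnip3 has the highest value in both panels (2.16 and 2.40); Fas (-0.85) and Foxo1 (-0.61) are among the 5 that fell in Combination.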

How the data were processed

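RNA was measured in 20 libraries of sorted CD8+ T cells, 5 in each of 4 groups taken from the labels. Per the labels' protocols, libraries were made with the SMART-Seq v4 kit. Per the submitters' processing notes, HISAT2 and StringTie were used with GRCm38 (mm10); their versions, the annotation and the settings are not given in the sources used here. The authors deposited 1 table whose values are taken here as FPKM: its header names no unit, values are not whole numbers and column sums differ. Depth is unknown, so no counting error is given.

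limma 3.58.1 in R 4.3.3 was fitted to log2(FPKM + 1) of the 11794 genes that reached 1 FPKM in 5 or more libraries, with 1 mean per group (16 residual degrees of freedom), a variance trend and two-sided Benjamini-Hochberg adjusted p-values over all genes, in 7 comparisons. The fit was tested on simulated data. The 10 genes, the gene lists and the markers were chosen with earlier results of these data known. From each list, up to 4 called genes per comparison with the smallest p could be named, or the 1 of smallest p where none was called. Not every gene that this rule allows is named, and Trp53 and Mdm2, which were not called, were given outside it. Ratios, marker sums, promoter windows and the alignment of the A1 copies were computed in Python 3.11.15 (pandas 2.3.3, Biopython 1.88); gene positions and promoters are RefSeq's for GRCm38.p6, and overlaps of exons are from GENCODE. Alternatives changed the pseudocount to 0.1, the filter, the scaling, the weights, the block, the groups in the fit and the libraries, and 2 were added after seeing the data. The value of 1 listed gene is not reported here; it stays in the counts.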

Additional observations from a re-analysis of the deposited data

How the results depend on the processing

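The 9 tested genes had 1278 values under the alternatives. A call could be reversed only where the main fit lay past the threshold, and there no value changed sign. Elsewhere signs did change, as for Bcl2a1b and Bcl2a1d in Combination against Control (above). Of the 9 values of the tested genes past the threshold, 6 stayed past it in every alternative. They were Bcl2, Bcl2l11, Bax and Morrbid in Combination against Control, Bax in Pembrolizumab against Control, and Morrbid in Combination against ABL503. Mcl1 was lost against Control without the 2 libraries of lowest array weight (Control 1 and ABL503 3), and against ABL503 in 7 of 9 alternatives. Morrbid against Pembrolizumab was lost in 4 of 9: no filter, the replicate block, only the groups compared and the myeloid covariate. Gained were Bcl2, Bcl2l11 and Bax against ABL503 and Bcl2l11 against Pembrolizumab with array weights, Bax against ABL503 with the myeloid covariate, and Bax in ABL503 against Pembrolizumab with array weights, quantile normalization or the covariate. Of the listed genes' 798 values, 616 kept their call and 182 lost it.

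Counts of called genes moved by over 1.5 times as follows. With no filter, they were 321 in Pembrolizumab, 42 in ABL503 and 939 in Combination against Control, 3 in Combination against Pembrolizumab, 271 against ABL503, 67 between the single agents and 6 in the interaction. With array weights, they were 85 in Combination against Pembrolizumab, 935 against ABL503, 301 between the single agents and 50 in the interaction. With only the groups compared, they were 395 in Pembrolizumab against Control and 3 in Combination against Pembrolizumab. Without the 2 libraries of lowest weight, they were 435 in Pembrolizumab and 37 in ABL503 against Control, 32 in Combination against Pembrolizumab, 88 between the single agents and 7 in the interaction. With the myeloid covariate, 10 were called in Combination against Pembrolizumab. The cause of these moves was not tested. Leaving out 1 library gave 383 to 706 in Pembrolizumab (lowest without Pembrolizumab 1), 40 to 72 in ABL503 (lowest without ABL503 5) and 957 to 1659 in Combination (lowest without Combination 2) against Control. It gave 6 to 49 in Combination against Pembrolizumab (without Pembrolizumab 1 and 2), 263 to 747 against ABL503 (without ABL503 2 and 1), 54 to 218 between the single agents (without ABL503 2 and 1) and 6 to 49 in the interaction (without Pembrolizumab 1 and 4).

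Same-numbered libraries did not clearly deviate together (correlations of -0.146 to 0.107, and 5 of 20 libraries correlated best with their own number). No pairing by number was seen in this check, and whether the numbers mark a shared batch was not tested. With the replicate block, 617, 60 and 1387 genes were called in Pembrolizumab, ABL503 and Combination against Control, 17 in Combination against Pembrolizumab, 512 against ABL503, 120 between the single agents and 16 in the interaction. Depth is unknown, so how far it limits the low genes Bak1 and Bbc3 cannot be given.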
